A study of Mus musculus with 6 samples.

Results

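The genes for the proteins of the cytosolic ribosome were measured in the basolateral amygdala of control and chronically stressed mice. Members were taken by a rule on symbol and depth, chosen with earlier results of these data known. Their symbols are Rpl or Rps followed by a number, the stalk genes Rplp0, Rplp1 and Rplp2, or Rpsa. They needed at least 60 counts summed over the 6 libraries. Of the 26264 symbols in the files 76 matched, and 74 were kept, 28 of the small and 46 of the large subunit. Rps16 with 47 counts and Rps29 with 29 counts fell below the minimum. All 74 passed the filter on low counts, so none was lost from the tests. The symbol pattern leaves out 4 genes of the cytosolic ribosome, among them Rps3a1, Fau and Rack1, which are described beside the members. It also leaves out close relatives of members (paralogs), such as Rpl22l1 and Rpl36al.

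The libraries came from 3 control mice that were not stressed and 3 mice under chronic restraint stress (CRS), in which the animal is held immobile repeatedly. All were male, and replicates are described as biological by the submitters. The sources used here give neither strain, age nor the length of the restraint. Total RNA of the dissected tissue was depleted of ribosomal RNA and sequenced as single-end reads of 100 bases, giving 9859449 to 10233706 counts in genes per library.

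The cytosolic ribosome is made of ribosomal RNA and a full set of proteins, nearly all of which are needed in equal numbers. The small subunit reads the messenger RNA, and the large subunit joins amino acids and holds the tunnel through which the new chain leaves. Most ribosomal protein messenger RNAs begin with a terminal oligopyrimidine (TOP) tract, a C followed by further pyrimidines. Through this tract the kinase mTOR and the RNA-binding protein Larp1 set how strongly the messengers are translated and how long they last. In neurons, ribosomes also lie in dendrites, where local protein synthesis takes part in synaptic plasticity.

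The tract is shown here because it is the start sequence that ribosomal protein messengers are known for. RefSeq start sites (build GRCm38.p6) were matched for 55 of the 74 members, with 65 starts. At 13 of these starts (20%) the first base was a C followed by at least 4 pyrimidines, against 2.51% of 32851 starts of all 27025 genes in the table. Within 5 bases of the start such a tract lay at 44.6% of member starts and 18.3% of all starts. The lines below give 8 members named in the results that have a single start in the table, each with 15 bases before the start and 15 from it on. Capitals mark the tract, and the last 2 genes have none within 5 bases. These 8 lines do not show how common the tract is among the named members. Others with a single start, among them Rps15, Rps7, Rpl26, Rpl13, Rplp0 and Rpsa, also have none within 5 bases. All these starts are annotated ones and were not measured in these libraries. A tract missing here therefore does not show that the messenger lacks one.
Rps6, chr4:86857353-86857382, minus strand: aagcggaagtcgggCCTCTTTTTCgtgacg
Rps18, chr17:33955651-33955680, minus strand: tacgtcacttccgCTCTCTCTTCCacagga
Rplp2, chr7:141447636-141447665, plus strand: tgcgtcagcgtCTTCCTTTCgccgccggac
Rpl27a, chr7:109519180-109519209, plus strand: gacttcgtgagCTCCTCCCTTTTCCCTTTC
Rps2, chr17:24720048-24720077, plus strand: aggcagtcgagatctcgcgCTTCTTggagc
Rpl39, chrX:37085208-37085237, minus strand: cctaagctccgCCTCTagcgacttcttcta
Rpl6, chr5:121204486-121204515, plus strand: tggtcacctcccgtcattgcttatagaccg
Rpl10, chrX:74270801-74270830, plus strand: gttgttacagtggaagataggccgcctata
In the first 3 of these the annotated first base is itself a C followed by at least 4 pyrimidines. In Rpl27a and Rpl39 the tract begins 4 bases before the annotated first base and includes it, and in Rps2 it begins 4 bases after it.

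Motifs were searched on both strands of the 300 bases around each start, 250 before it and 50 after. CCGGAAG, a core of ETS factor sites, was found at 36.9% of member starts and 8.86% of all starts. TCTCGCGA was found at 16.9% against 0.995%, and AAGATGGC, a core of the YY1 site, at 10.8% against 2.75%. The TATAAA box was at 9.23% of member starts and 13.6% of all starts. These shares describe letters in the window and do not show that a factor binds there.

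No ribosomal protein gene passed the threshold between stressed and control mice, and the fold changes lay close to 0 in both directions. In edgeR's quasi-likelihood test 0 of 74 members had an adjusted p under 0.05, as did 0 of 14739 tested genes (0%), and limma-voom and DESeq2 also called 0 members. At an unadjusted p under 0.05 there were 0 members, against 3.37% of all tested genes. Of the members 39 were higher and 35 lower under stress, while 51.6% of all genes had a fold change below 0. The median log2 fold change, stress minus control, was 0.0030 over the members and -0.0044 over all tested genes. The sign depended on the scaling: with library size alone in place of TMM the median was -0.02 in the members, with 31 higher and 43 lower, and -0.02 over all tested genes. The members' fold changes had an SD of 0.11, compared with 0.22 over all tested genes and 0.10 in 76 mitochondrial ribosomal protein genes.

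The intervals show how large a difference these libraries could have missed. The 95% interval of the fold change lay within 1.5-fold in either direction for 69.8% of all tested genes. It did so for 73 of 76 mitochondrial ribosomal protein genes and for 63 of 74 members. The 11 other members had 70 to 431 counts in all, among them Rps23, Rpl23a, Rpl38 and Rps6. Of the members 49 had a log2 fold change smaller than 0.1 in size, and 4 exceeded 0.2, namely Rpl10, Rps7, Rpl23a and Rpl36a. The 33 members with at least 2000 counts had a median SE of 0.09 and a largest log2 fold change of 0.15 in size. The 17 members under 500 counts had a median SE of 0.26.

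**Figure D1:**
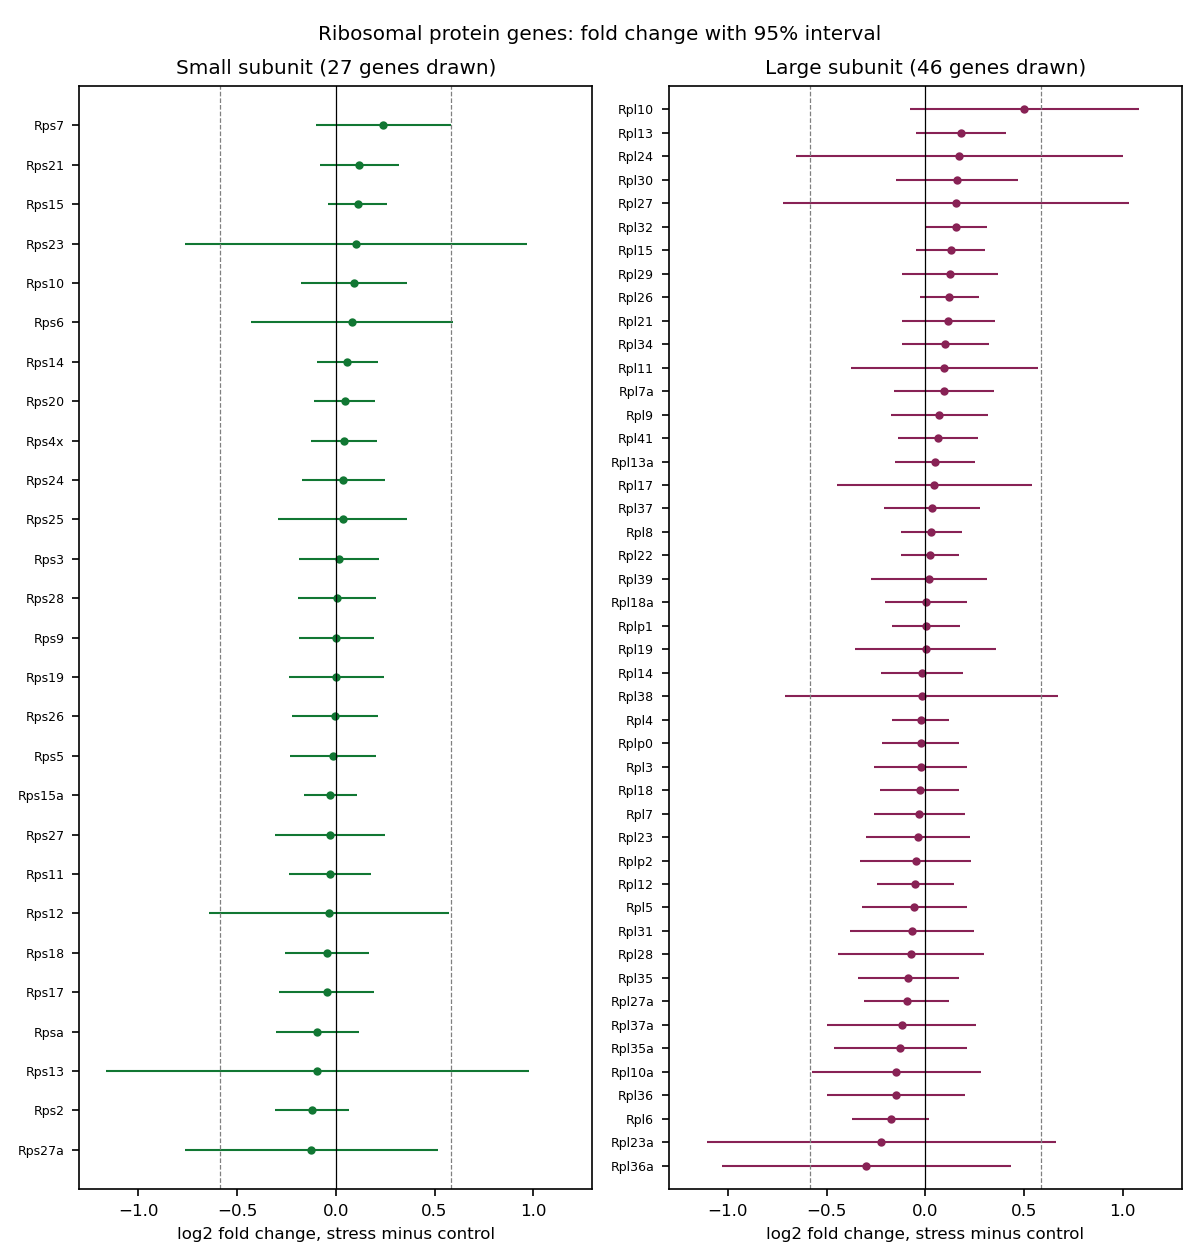
Log2 fold change of the members, all but 1 of which are drawn, stress minus control, with its 95% interval, for the small subunit (left) and the large subunit (right). Dashed lines mark 1.5-fold in either direction, and every interval drawn includes 0, the widest being those of members with few counts such as Rps13 and Rpl23a.

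The subunits had nearly the same median. In the small subunit 15 genes were higher and 13 lower, with a median of 0.0030, and in the large subunit 24 were higher and 22 lower, with a median of 0.0026. The difference of the medians, small minus large, was 0.00041. Taken per library, the mean level of the small minus that of the large subunit was -0.02, 0.04 and -0.02 in controls 1 to 3, and in stress 1 to 3 it was -0.04, 0.02 and 0.00028, on the log2 scale. The groups overlapped on this measure, and its SD was 0.03 within each group (n = 3). Grouped by evolutionary origin, the 31 proteins shared by all domains of life had a median of -0.02, with 13 higher and 18 lower. The 43 found in archaea and eukaryotes, or in eukaryotes only, had a median of 0.0052, with 26 higher and 17 lower.

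The spread between animals exceeded the difference between the groups. Members took 0.368, 0.356 and 0.314% of the counts in genes in the controls, by replicate number, and 0.332, 0.356 and 0.349% in the stress libraries. Control 3 was the lowest of the 6 and control 1 the highest, so the stress libraries lay inside the range of the controls. The group means were 0.346 ± 0.0287% in controls and 0.346 ± 0.0122% under stress (SD, n = 3 each). As mean log2 level over the members, relative to the control mean, the libraries stood at 0.06, 0.04 and -0.10 in controls and -0.02, 0.01 and 0.04 under stress. Control 3 was the lowest library for 40 of 74 members (54.1%), compared with 16.5% of all tested genes. It was lowest for 17 small and 23 large subunit genes, so that both subunits were low in it together. Without control 3 the median log2 fold change of the members was -0.06, and without control 1 it was 0.05.

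**Figure D2:**
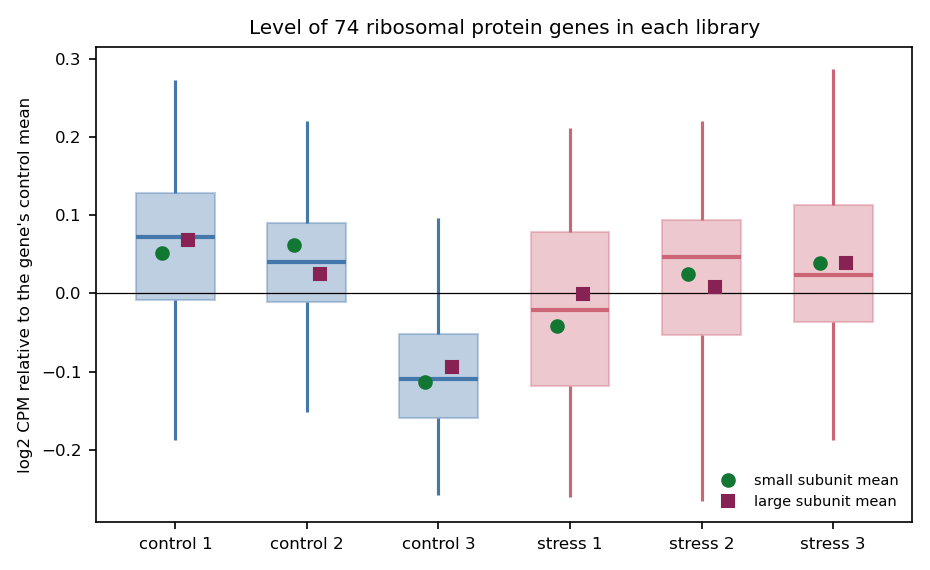
Log2 CPM of the 74 members in each library, relative to each gene's control mean; boxes span the quartiles with the median as a line, whiskers the 5th to 95th percentile, and points give the mean of each subunit. Control 3 lies lowest at a median of -0.11, and the 3 stress libraries lie between it and control 1.

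Other properties of the dissections also varied between animals, and their part in the members' levels was not tested. In tissue RNA, fewer cells of a type and less RNA per cell cannot be told apart. Of 10 markers of basolateral amygdala excitatory neurons none was at 0, and their summed level was 2409 to 3165 CPM in the controls and 2907 to 3330 CPM in the stressed mice, with 10 of 10 higher under stress by fitted value. Ttr, the main secreted protein of the choroid plexus, was at 2128, 3777 and 18.9 CPM in controls 1 to 3, and at 2.87, 5553 and 8.34 CPM in the stress libraries. The 14 choroid plexus and ependyma markers summed to 244 to 6738 CPM in the controls and 154 to 9101 CPM in the stressed mice. The 14 striatal and central amygdala markers were at 924 to 1896 and 288 to 1034 CPM, and the 14 oligodendrocyte markers at 2340 to 3702 and 1832 to 2630 CPM. In each of these 3 lists 14 of 14 genes had a fold change below 0. The red blood cell markers summed to 98.8, 109 and 130 CPM in controls 1 to 3 and 87.8, 91.8 and 91.7 CPM in stress 1 to 3, so that every stress library lay below every control and control 3 was highest. Of their 5 tested genes 5 had a fold change below 0, 2 of them at an unadjusted p under 0.05, against 3.37% of all tested genes. Of 12 astrocyte markers 11 were lower by fitted value, 2 of them at that p, with sums of 5733 to 6320 CPM in the controls and 5355 to 6196 CPM in the stressed mice. Of 12 endothelial markers 10 were lower, with sums of 291 to 358 and 286 to 301 CPM. The 12 microglia markers summed to 449 to 497 and 445 to 466 CPM, with 9 lower and 1 of them at that p, and the 12 meningeal and pericyte markers to 240 to 269 and 216 to 307 CPM, with 11 lower and 3 of them at that p. At the same p were 3 oligodendrocyte markers, all lower, and 0 endothelial, choroid plexus, striatal or neuronal ones. As mean log2 level relative to the control mean, control 3 stood at -0.10 in the members. It was at -0.07 in the mitochondrial ribosomal protein genes, -0.12 in the 4 genes outside the pattern and -0.20 in 6 tested paralogs. In each of the ribosome biogenesis, RNA polymerase I and translation factor lists it was at -0.04. In the non-coding TOP genes it was at -0.03, and in the regulators of TOP messengers at 0.07. The median level of control 3 was -0.03 in 2153 other genes under 1000 bases and 0.02 in 2698 other genes of 4000 bases or more. In stress 1 these medians were -0.02 and 0.02. Over the members the median level was -0.11 in control 3 and -0.02 in stress 1. Whether transcript length had a part in the members' levels was not tested. With the 3 libraries of high Ttr (controls 1 and 2 and stress 2) left out, control 3 is the only control, and the members' median was 0.11.

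In 4 members the groups did not overlap, and all 4 were higher under stress: Rpl32, Rpl26 and Rpl13 of the large subunit and Rps15 of the small one. Over all tested genes 3.8% were separate with stress higher and 4.48% with stress lower, while no member was separate with stress lower. The count of 4 in 74 is close to that background. Rpl32, a large subunit protein of archaea and eukaryotes, was at 87.0, 90.6 and 79.7 CPM in the controls and at 93.9, 96.2 and 96.2 CPM in the stressed mice. All 3 stress libraries were above all controls, and control 3 was the lowest. Its log2 fold change was 0.15 ± 0.07 (SE), with the smallest unadjusted p of the members at 0.0504 (adjusted p = 0.997, edgeR).

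Rpl26, which lies beside the exit tunnel, was at 50.4, 49.7 and 49.1 CPM in the controls and at 53.8, 56.2 and 52.3 CPM in the stressed mice. The controls lay close together and below all stress libraries, and the log2 fold change was 0.12 ± 0.06. Rpl13 was at 15.9, 14.6 and 13.8 CPM in the controls and at 16.5, 17.3 and 16.4 CPM in the stressed mice. The log2 fold change was 0.18 ± 0.10. Rps15, in the head of the small subunit, was at 148, 149 and 134 CPM in the controls and at 158, 152 and 155 CPM in the stressed mice. The log2 fold change was 0.11 ± 0.06. In all 4 of these members control 3 had the lowest value. The adjusted p was 0.997 for each of these genes (edgeR). Rps16, below the depth minimum, also had separate groups, on 5, 6 and 6 counts in controls and 14, 9 and 7 under stress.

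**Figure D3:**
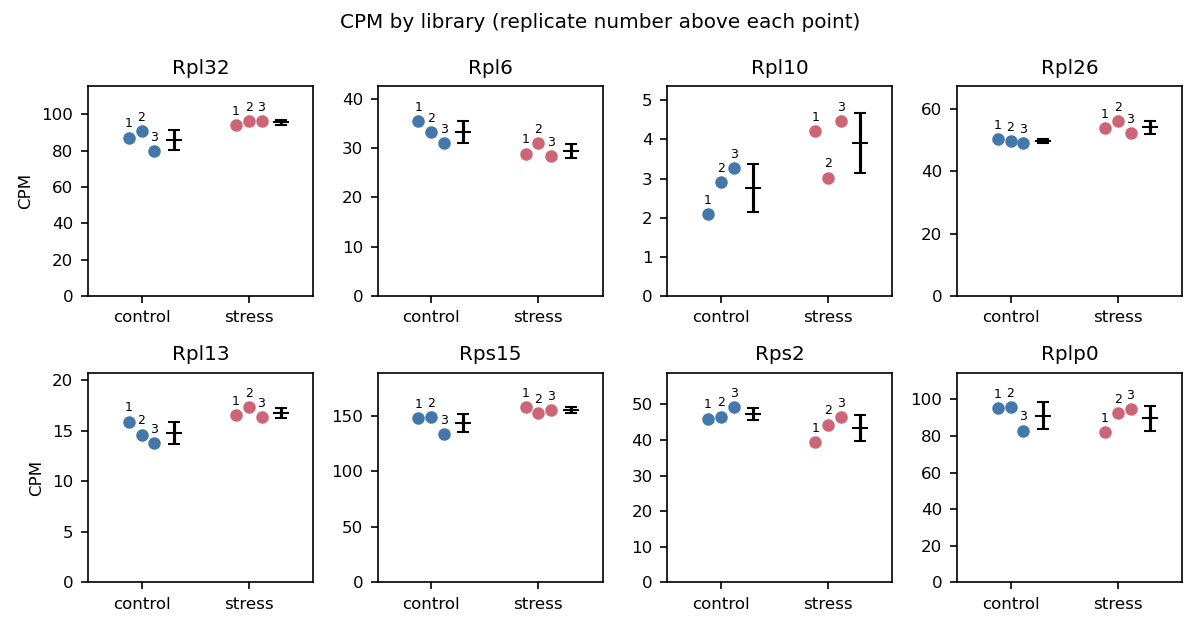
CPM of 8 members in each library, with replicate numbers above the points and the mean ± SD (n = 3) beside them. Rpl32, Rpl26, Rpl13 and Rps15 have stress libraries above all controls by a small margin, while Rpl6, Rpl10, Rps2 and Rplp0 overlap.

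Other members with small p overlapped between the groups. Rpl10 joins the large subunit late in its maturation, and it had the largest difference, at 2.09, 2.91 and 3.27 CPM in the controls and at 4.21, 3.02 and 4.47 CPM in the stressed mice. Stress 2 lay within the control range, and the gene rested on 199 counts in all. Its log2 fold change was 0.50 ± 0.25 with a 95% interval from -0.08 to 1.08 (unadjusted p = 0.0821, adjusted p = 0.997, edgeR). Rps7 of the small subunit was at 11.2 ± 1.80 CPM in the controls and at 13.3 ± 1.38 CPM in the stressed mice (SD, n = 3). The log2 fold change was 0.24 ± 0.15. Rps21 had a log2 fold change of 0.12 ± 0.09 and Rps14, near the exit of the messenger channel, one of 0.06 ± 0.07.

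Among members lower under stress Rpl6 had the smallest p. It was at 35.5, 33.2 and 31.0 CPM in the controls and at 28.9, 31.0 and 28.3 CPM in the stressed mice. The log2 fold change was -0.18 ± 0.08 (unadjusted p = 0.0710, adjusted p = 0.997, edgeR). Stress 2 and control 3 were almost equal, and the other stress libraries were below all controls. Rps2, at the entry of the messenger channel, was at 46.0, 46.5 and 49.2 CPM in the controls and at 39.4, 44.3 and 46.4 CPM in the stressed mice. The log2 fold change was -0.12 ± 0.08. Only stress 3 reached the control range. Rpl27a had a log2 fold change of -0.09 ± 0.09, Rpl36 one of -0.15 ± 0.15 and Rps18 one of -0.05 ± 0.09. Rpl36a, with 81 counts, was at -0.30 ± 0.32, where the interval ran from -1.03 to 0.43.

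Genes with named tasks on the ribosome had no fold change past the threshold. The stalk, which recruits the elongation factors, is built from Rplp0, Rplp1 and Rplp2 on the base protein Rpl12. Rplp1 was at 212, 200 and 177 CPM in the controls and at 196, 196 and 198 CPM in the stressed mice. The controls spread widely around the 3 nearly equal stress values, and the log2 fold change was 0.0034 ± 0.08. Rplp0 was at -0.02 ± 0.09, Rplp2 at -0.05 ± 0.12 and Rpl12 at -0.05. Of the 6 exit tunnel proteins 3 were higher and 3 lower. They ranged from Rpl23a at -0.22 ± 0.38 to Rpl26, given above, at 0.12 ± 0.06, with Rpl39 at 0.02 ± 0.13 and Rpl4 at -0.02 ± 0.06. Rpl5 and Rpl11 bind the small ribosomal RNA of the large subunit and, when free, restrain Mdm2, the regulator of p53. Their log2 fold changes were -0.06 ± 0.12 and 0.10 ± 0.21.

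Rps6, the classic substrate of the S6 kinase, was at 5.17, 8.82 and 6.95 CPM in the controls and at 8.21, 7.96 and 6.06 CPM in the stressed mice. The groups overlapped fully, at a log2 fold change of 0.08 ± 0.22. Rpsa, also known as the laminin receptor, was at 81.8 ± 8.44 CPM in the controls and at 76.6 ± 5.10 CPM in the stressed mice (SD, n = 3). The log2 fold change was -0.09 ± 0.09. Rps27a, which is made as a fusion to ubiquitin, was at -0.12 ± 0.28 on 99 counts. Rps3, which lines the messenger's entry, was at 0.02 ± 0.09. At the low end of depth, Rpl23a was at -0.22 ± 0.38 and Rps23 at 0.10 ± 0.38, each on 70 counts. With library size alone Rplp1, Rpl39 and Rps3 turned below 0. Of the named members 14 turned direction in at least 1 alternative fit.

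Paralogs aside, the 4 genes outside the symbol pattern were all higher, with a median of 0.05. Rps3a1 of the small subunit was at 55.6, 56.2 and 49.6 CPM in the controls and at 57.4, 59.6 and 59.6 CPM in the stressed mice. These groups were separate, at a log2 fold change of 0.13 ± 0.07. Rack1, a signalling scaffold on the small subunit, was at 0.02 and Fau at 0.01. Adding these 4 to the members gave a median of 0.0043. Of 6 tested paralogs 2 were higher and 4 lower, with a median of -0.04.

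Genes that build, feed and regulate the ribosome were read from lists. None of their members passed the threshold (edgeR, adjusted p under 0.05). Among 76 tested mitochondrial ribosomal protein genes, which serve a separate ribosome, 38 were higher and 38 lower, and 2 had an unadjusted p under 0.05, against 3.37% of all tested genes. Among 38 ribosome biogenesis genes 14 were higher and 24 lower, with a median of -0.03 and 3 at that p, which 3.37% of all tested genes reached. These were led by Nip7, a factor of large subunit maturation, at 33.8 ± 1.66 CPM in the controls and at 39.5 ± 3.73 CPM in the stressed mice (SD, n = 3), and Fbl, the methyltransferase fibrillarin, at 2.55 ± 0.218 and 1.65 ± 0.399 CPM. Their log2 fold changes were 0.22 ± 0.09 and -0.63 ± 0.26, and Fbl rested on 126 counts. Of 12 genes of the RNA polymerase I machinery, which transcribes ribosomal RNA, 5 were higher and 7 lower, with 0 at that p, Taf1d at -0.19 ± 0.10 and Polr1c at 0.13 ± 0.11.

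Other messengers with TOP tracts gave no common direction. Of 15 translation factor genes and similar TOP genes 7 were higher and 8 lower, with 1 at an unadjusted p under 0.05, where 3.37% of all tested genes stood. Tpt1, a growth-related TOP gene, was at 7.45, 6.69 and 8.07 CPM in the controls and at 4.72, 4.43 and 6.46 CPM in the stressed mice. The groups were separate, and the log2 fold change was -0.51 ± 0.19. Eif3e, a subunit of an initiation factor, was at 0.08 ± 0.07. Of 11 non-coding genes, nearly all hosts of small nucleolar RNAs, 5 were higher and 6 lower, with 2 at that p. Over all tested genes 3.8% were separate with stress higher and 4.48% with stress lower. Snhg1 was at 10.8, 11.3 and 9.20 CPM in the controls and at 7.80, 6.45 and 7.55 CPM in the stressed mice, at -0.53 ± 0.15, and Zfas1 at 0.30 ± 0.13, both with separate groups and in opposite directions. Of 14 regulators of TOP messengers 10 were higher and 4 lower, with a median of 0.03 and 0 at that p, and the S6 kinase gene Rps6kb1 was at 0.09 ± 0.06.

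**Figure D4:**
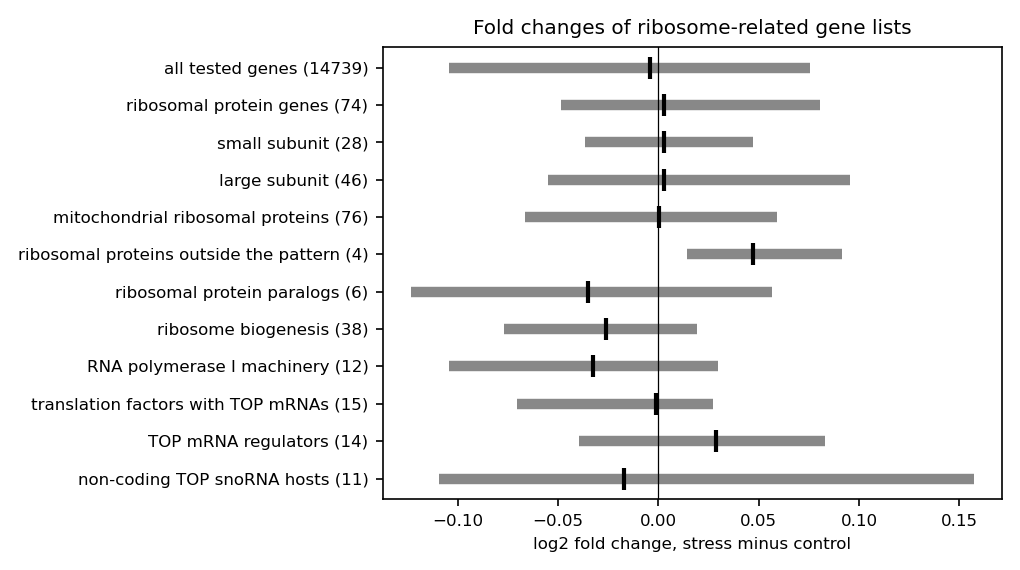
Median (black mark) and quartiles (grey bar) of the log2 fold change, stress minus control, for the members, their subunits, related lists and all tested genes, with the number of tested genes in parentheses. Every median lies between -0.04 and 0.05, and the quartiles of every list except the 4 genes outside the pattern span 0.

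Although nearly all of their proteins are needed in equal numbers, the members' measured levels ranged 316-fold per length, from 1.25 CPM per kb for Rps23 to 394 CPM per kb for Rplp1. The 5 members with most counts held 30.3% of the 207445 member counts. Ribosomal protein genes have many processed pseudogenes, copies of their messengers elsewhere in the genome. Reads that align to more than 1 place stood in a row of their own outside the genes. They made up 6.97 to 8.16% of the sum of reads in genes, without a gene, with several alignments and ambiguous. In the GENCODE M21 transcripts, a median of 57.8% of a member's windows of 100 bases, the read length, were found in no other annotated gene. Of the 74 members 33 had fewer than 50% unique windows, 5 had only unique windows, and 67 shared at least 1 window with an annotated pseudogene.

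Measured level tended to go with uniqueness. In the 25 members with the least unique sequence, 1.63 to 43.2% of windows, the median was 8.51 CPM per kb. It was 30.3 CPM per kb in the 24 members with 43.5 to 71.8% and 61.9 CPM per kb in the 25 with 75% or more. Across the 74 genes Spearman's rho of percent unique windows with CPM per kb was 0.59, a description over genes that share the same 6 libraries. Whether reads lost to copies set this range was not tested. The fold changes differed little between these classes, with medians of -0.03, -0.0064 and 0.02, while the median SE was 0.16 in the least unique and 0.09 in each of the others.

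Rps6 and Rps3, both of the small subunit, were picked to show the contrast in sequence. Rps6 was at 8.20 CPM per kb with 16.4% unique windows, and Rps3 at 105 CPM per kb with 100% unique windows. The window of Rps6 below, coding bases 608 to 707 of 750, was chosen because no other coding window considered was shared with more genes. It is found letter for letter in 7 annotated pseudogenes, among them Rps6-ps4. The window of Rps3, coding bases 317 to 416 of 732, is found in no other annotated gene.
Rps6: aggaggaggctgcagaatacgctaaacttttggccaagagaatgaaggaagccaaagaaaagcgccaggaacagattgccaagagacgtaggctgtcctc
Rps3: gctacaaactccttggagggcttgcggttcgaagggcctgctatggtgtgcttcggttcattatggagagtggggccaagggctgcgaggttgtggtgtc

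**Figure D5:**
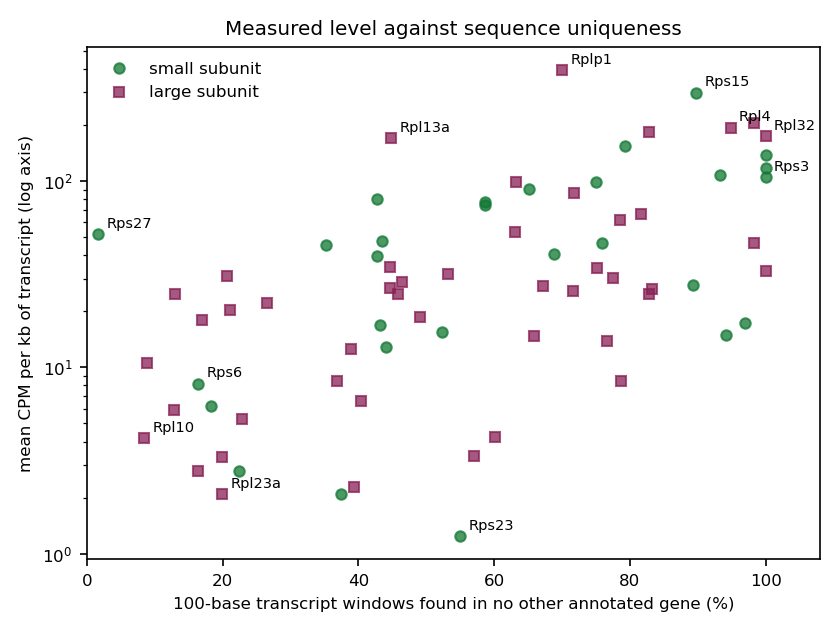
Mean CPM per kb of transcript (log axis) against the percent of 100-base windows found in no other annotated gene, with 1 point per member and colours for the subunits. Points on the left, such as Rpl10 and Rps6, tend to lie lower than those on the right, but Rps27, the leftmost point, is at 52.1 CPM per kb, and the lowest level, that of Rps23, is at 55.0% unique windows.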

How the data were processed

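The values are raw counts that the authors deposited per symbol and library. The submitters' processing notes list, with no roles, the build mm39 and the tools edgeR 3.42.4, HTSeq 0.13.5, STAR 2.7.7a and FastQC 0.12.1. Neither the annotation nor whether the counting used strand is given in the sources used here, so overlapping and antisense genes cannot be told apart. Rows for reads without a gene (53.0 to 57.4%), with several alignments or ambiguous (0.162 to 0.194%) entered neither library sizes nor tests. These shares are of the sum of reads in genes and in these rows. A row for low alignment quality held the same value as that for several alignments in every library. It was left out of the sum.

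The deposited counts were fitted in R 4.3.3 with edgeR 4.0.16 (TMM, filterByExpr with a minimum count of 10 and total of 15, robust quasi-likelihood F test) over 14739 genes, with Benjamini-Hochberg adjustment over all of them and a threshold of 0.05. SEs were obtained by dividing the size of the log2 fold change by the root of F. CPM uses TMM-scaled library sizes, and levels are log2 CPM with a prior count of 2. The procedure was also run on simulated counts that held no differences between dissections. That run does not show how large a difference these libraries could have missed. No 2 libraries agreed within sampling noise.

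The members and lists were chosen with earlier results of these data known. Named members are the 4 with the smallest p per subunit and direction, those with separate groups, 9 chosen for their role, and the 2 highest and 2 lowest in mean CPM, plus 1 gene per direction of each other list; 1 member that this rule takes is not reported here. Transcript windows and lengths come from GENCODE M21 and start sites from RefSeq, both of the build GRCm38, not the build of the counts. They were used only through gene symbols. Windows and CPM per kb used 1 transcript per gene. The length classes used the median length over the protein-coding transcripts of each symbol. Protein sequences were not used here. Alternatives covered normalization, filters, limma-voom 3.58.1, DESeq2 1.42.0, a replicate block and each library left out. The fits without control 1 and stress 1 and without the 3 libraries of high Ttr were chosen after seeing the data.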

Additional observations from a re-analysis of the deposited data

How the results depend on the processing

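The count of members past the threshold was 0 under every alternative run. The count at an unadjusted p under 0.05 was 1 with DESeq2's size factors (Rpl32), 0 to 2 with each replicate left out, 1 without control 1 and stress 1 (Rps7) and 1 without the 3 libraries of high Ttr (Rpl21). Leaving out control 3 gave the 2, both lower, among them Rpl6. The members' median log2 fold change ran from -0.06 to 0.05 with each replicate left out and was 0.11 without the 3 libraries of high Ttr, where control 3 is the only control and is assumed to vary like the other group. It was -0.02 with library size alone. With the replicate block the median was 0.0066 and no member passed; residuals of same-numbered libraries correlated at -0.32, 0.53 and 0.28, so the numbers were not read as pairs.

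Of 43 named genes 28 kept their direction in all 15 alternative fits, and 41 of 645 values turned, in 15 genes. With each replicate left out, log2 fold changes ran from -0.0056 to 0.29 for Rpl11, -0.02 to 0.25 for Rpl22l1, -0.45 to 0.03 for Rpl23a, -0.06 to 0.17 for Rpl39, -0.06 to 0.0086 for Rpl4, -0.13 to 0.04 for Rpl5, -0.09 to 0.04 for Rplp0, -0.07 to 0.06 for Rplp1, -0.15 to 0.05 for Rplp2, -0.11 to 0.04 for Rps18, -0.23 to 0.28 for Rps23, -0.06 to 0.09 for Rps3 and -0.09 to 0.30 for Rps6. Without the 3 libraries of high Ttr, Rpl11 was at -0.13, Rpl23a at 0.56, Rpl4 at 0.07, Rpl5 at 0.05, Rplp0 at 0.09, Rplp2 at 0.12, Rps18 at 0.05, Rps23 at -0.09 and Rpsa at 0.06. Without control 1 and stress 1, Rpl11 was at -0.01, Rpl5 at 0.0078, Rplp0 at 0.07, Rplp2 at 0.12, Rps6 at -0.17 and Rpsa at 0.02. With library size alone, Rpl39 was at -0.00057, Rplp1 at -0.01 and Rps3 at -0.0021. The cause was not tested.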

Other observations

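Copies of ribosomal protein genes had counts of their own. The files hold 10 pseudogene rows with a member as parent, 6 of them with at least 60 counts, and these rows took 7529 counts, compared with 207445 in the members. In 3 cases the pseudogene had more counts than its parent. Rps6-ps4 had 1561 counts and Rps6 431, Rplp2-ps1 had 2041 and Rplp2 1440, and Rpl14-ps1 had 3310 and Rpl14 3224. Rps6-ps4 was at 232 to 264 counts in the controls and at 264 to 277 in the stress libraries, with a log2 fold change of 0.12 ± 0.08. Whether these counts come from transcripts of the copy or of the parent was not tested. Rpl36al, a paralog, had 643 counts against 81 for Rpl36a, and Rps27rt had 1019 against 1077 for Rps27. None of these copies passed the threshold (edgeR, adjusted p under 0.05).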
